A study of Caenorhabditis elegans with 2 samples.

Results

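Binding of MEP-1 was described at the genes for 7 subunits of the DREAM complex: lin-35, dpl-1, efl-1, lin-9, lin-37, lin-52 and lin-54. They were taken by gene name for the Rb and E2F repressor core of the synMuv class B group, and all 7 were found among the 19973 protein-coding genes of the nuclear chromosomes. The study profiled whole L1 larvae of the Caenorhabditis elegans strain OP102 by chromatin immunoprecipitation with sequencing, in 2 biological replicates that form 1 group. Every animal carried the unc-119(tm4063) mutation on III and the transgene wgIs102, which supplies mep-1 fused to eGFP. The larvae were of mixed sex and of unknown age. The labels name mep-1 in the antibody field and do not give the promoter of the transgene. The material is whole animals, so the lists do not show in which cells MEP-1 was bound. No untagged or other control library was analysed here, and with 1 group there is no comparison between conditions.

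DREAM is a transcriptional repressor that joins a pocket protein of the Rb family, an E2F and DP pair that binds DNA, and a MuvB core. In animals it holds cell cycle genes off in cells that do not divide, and in C. elegans it also keeps germline genes off in the soma. Loss of a synMuv B gene together with a synMuv A gene gives worms with several vulvae. MEP-1 is a zinc finger protein that works with the Mi-2 helicase LET-418 and the deacetylase HDA-1, and mep-1 itself is counted among the synMuv B genes. C. elegans has a single Rb-like pocket protein, LIN-35. Many worm genes are trans-spliced or transcribed in operons, so an annotated 5' end can lie downstream of the place where transcription begins.

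The values are peaks called by the authors. An optimal list of 4904 peaks was kept after a test of reproducibility between replicates, and longer relaxed lists hold 30000 peaks of the pooled replicates, 30000 of replicate 1 and 29149 of replicate 2. Each peak has a summit and a signal value from the authors. The optimal and pooled lists share the same signal values, while each replicate list has its own scale. Signals were therefore compared only within a list, and replicates by rank, with rank 1 the highest signal. For each gene the promoter window took in 1000 bp in front of, and 200 bp behind, the 5' end of each of its coding transcripts. Distances are negative upstream of the 5' end. The lists hold no read counts, and the depth of both libraries is therefore unknown.

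The DNA under the summits is shown first for 5 of the 6 genes with a summit, whose peaks range from among the strongest to among the weakest of the list. The sequence at lin-35 is not printed, and it held no match to the words below within 100 bp of its summit. Each stretch is from the RefSeq assembly of WBcel235 (ce11), read 5' to 3' on the strand of the DREAM gene, up to 75 bases to each side of the optimal summit. The lin-54 stretch begins 29 bases before the summit, where the divergent gene rpl-12 starts. Capitals mark matches on either strand to words that were searched for. These were GACGCA from an earlier analysis of these data, the word ACGCAG and the word CGTCTC that run together with it, the LIN-54 element as TTTGAA or in its other form TTCGAA, and the E2F-type word GCGGGAA.
lin-54, chrIV:13240652-13240756, plus strand: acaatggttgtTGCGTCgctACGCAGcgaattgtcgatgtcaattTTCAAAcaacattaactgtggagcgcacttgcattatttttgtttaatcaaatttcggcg
lin-9, chrIII:8904211-8904361, minus strand: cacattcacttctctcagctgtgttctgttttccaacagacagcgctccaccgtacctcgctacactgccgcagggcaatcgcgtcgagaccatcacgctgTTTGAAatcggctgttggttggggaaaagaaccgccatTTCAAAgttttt
efl-1, chrV:16965784-16965934, minus strand: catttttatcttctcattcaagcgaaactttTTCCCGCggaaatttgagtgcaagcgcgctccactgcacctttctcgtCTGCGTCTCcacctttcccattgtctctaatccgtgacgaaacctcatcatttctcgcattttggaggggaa
dpl-1, chrII:9169548-9169698, plus strand: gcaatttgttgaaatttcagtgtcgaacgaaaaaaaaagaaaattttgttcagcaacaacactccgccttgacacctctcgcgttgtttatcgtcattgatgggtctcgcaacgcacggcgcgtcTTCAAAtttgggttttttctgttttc
lin-52, chrIII:9825374-9825524, minus strand: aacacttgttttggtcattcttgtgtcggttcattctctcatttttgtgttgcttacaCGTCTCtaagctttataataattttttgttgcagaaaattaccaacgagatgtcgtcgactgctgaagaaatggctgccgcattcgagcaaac

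Of the 7 genes, 6 had an optimal summit in their promoter window, against 17.5% of all protein-coding genes, and lin-37 had none. The strongest was at lin-54 (signal 549, rank 24 of the optimal list), followed by lin-9 (341, rank 131), lin-35 (269, rank 269) and efl-1 (252, rank 325). Much weaker were dpl-1 (64.2, rank 3332) and lin-52 (51.0, rank 4311). The summits in the windows of lin-54 and lin-52 were nearer to the 5' ends of rpl-12 and ZK632.9. The median signal of the 6 was 261, against 96.5 over the 2837 optimal summits in promoter windows of any gene. No DREAM gene had a signal between those of efl-1 and dpl-1. Seen along the order of promoter summits, lin-54 was number 14, lin-9 number 102, lin-35 number 215 and efl-1 number 263. In that order dpl-1 was number 2144 and lin-52 number 2591. All 4 stronger peaks, like 64.9% of all promoter summits, carried the highest −log10 q value that the list holds, so q does not order them.

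**Figure D1:**
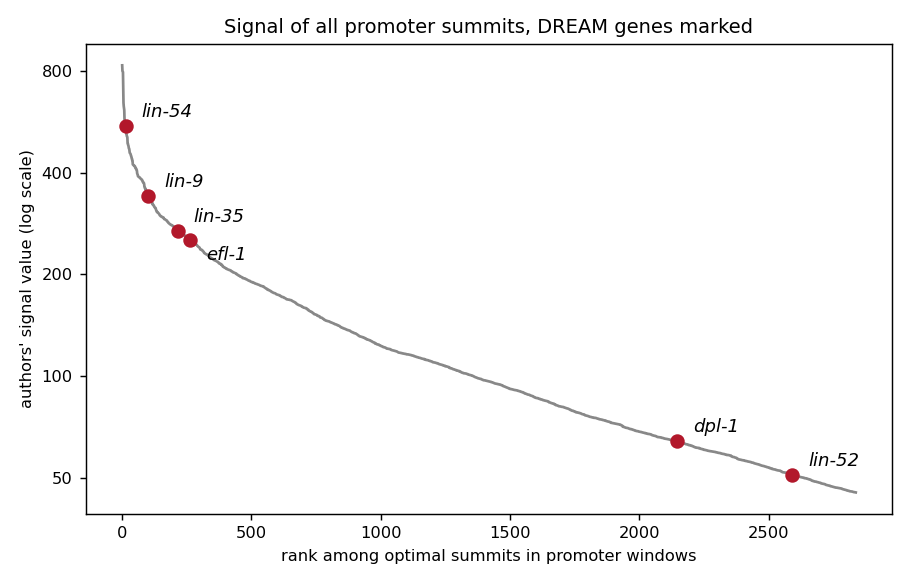
Signal of the 2837 optimal summits in promoter windows (y axis, authors' signal value, log scale) against their rank (x axis). Red points are the strongest summit in the window of each of 6 DREAM genes, nearer to another gene at lin-54 and lin-52. lin-54, lin-9, lin-35 and efl-1 lie at signals of 252 to 549 and dpl-1 and lin-52 at 64.2 and 51.0; lin-37 has no such summit and is not drawn.

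Both replicates held a promoter summit of any rank for the same 6 genes, against 32.9% of all genes, and the pooled list did too, against 42.3%. When each replicate list was limited to its 4904 highest peaks, lin-54, lin-9, lin-35 and efl-1 had a summit in both (15.0% of all genes). The other 2 were past that limit in 1 replicate each. Ranks at dpl-1 were 2621 in replicate 1 and 6649 in replicate 2. At lin-52 they were 4915 and 3652. The optimal list was made from these same replicates, so presence in both is partly built in. Every optimal peak is also in the pooled list, so presence there of the same 6 genes adds nothing.

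**Figure D2:**
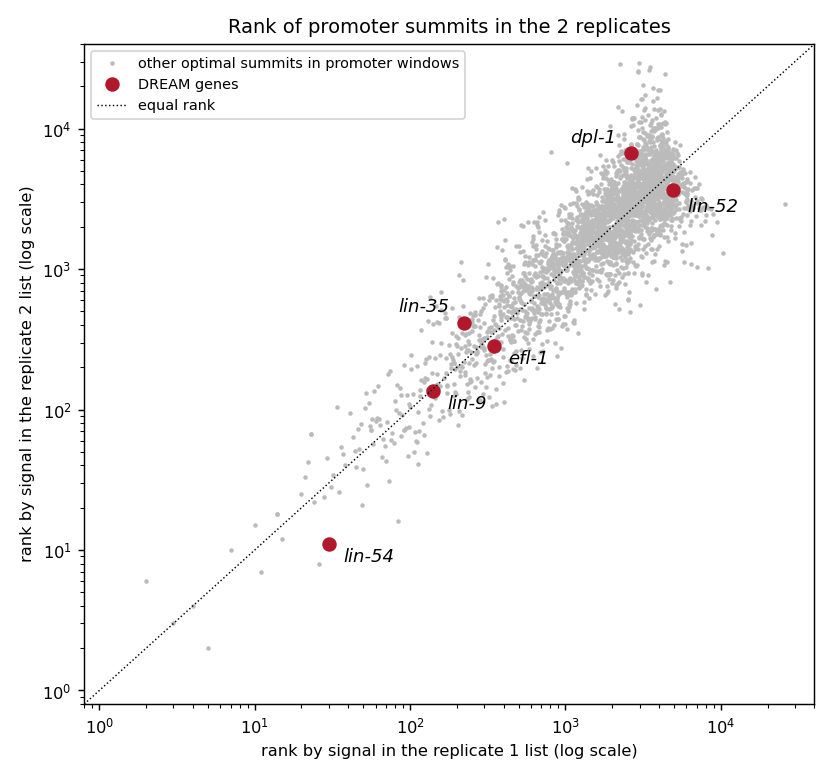
Rank by signal in the replicate 1 list (x axis, log scale) against rank in the replicate 2 list (y axis, log scale) for the 2813 optimal promoter summits with an overlapping call in both, with the 6 DREAM genes in red and the dotted line at equal rank. lin-9 lies at 140 and 136, close to the line, while lin-54 at 30 and 11 and dpl-1 at 2621 and 6649 lie farther from it on opposite sides.

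lin-35 encodes the pocket protein that gives the complex its repressive Rb-like subunit. Its gene (WBGene00003020) lies on I at 5807709 to 5815637, plus strand. The optimal peak ran from 5807406 to 5807621 and its summit was 194 bp upstream of the only annotated 5' end. The same place was called in replicate 1 with a signal of 200.3 (rank 221) and in replicate 2 with 73.0 (rank 414). Summits in the replicates were 197 and 175 bp upstream, a mean of -186 bp ± 15.6 (SD, n = 2). The vps-51 gene, which encodes a subunit of a tethering complex for vesicles, starts 418 bp away on the opposite strand. The summit lay 224 bp upstream of vps-51 and so in both windows, a little nearer to lin-35. No summit of the optimal or pooled list lay in the rest of the 7929 bp gene, and the best of the 3 there in replicate 2 was at rank 11569. Of these 3, those at rank 12413 and 24991 were also upstream of C32F10.4, a gene on the opposite strand inside lin-35.

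efl-1 encodes the E2F subunit, which recognises DNA together with DP. The gene (WBGene00001161) is on V at 16958590 to 16965675, minus strand. Its peak at 16965764 to 16965981 had its summit 184 bp upstream. It had a signal of 169.5 and rank 345 in replicate 1, and 83.7 and rank 285 in replicate 2, with summits 184 and 188 bp upstream (mean -186 bp ± 2.83, SD, n = 2). The summit was also 955 bp upstream of fbxa-90, an F-box gene on the other strand, but efl-1 was far the nearer. Across the 7086 bp of the gene, 1 weak pooled summit was found, 6183 bp from the 5' end (signal 21.3, rank 11920). It was called in replicate 1 at rank 22420 and in replicate 2 at rank 9826, and the 5' end nearest to it was that of clec-239, beyond the 3' end of efl-1.

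dpl-1 encodes the DP subunit, the partner of E2F on DNA. This gene (WBGene00001061, II 9169910 to 9172565, plus strand) lies wholly inside T23G7.2, which runs the other way. The optimal peak at 9169448 to 9169797 had its summit 287 bp upstream of dpl-1. There the annotation has an intron of the coding T23G7.2 transcript and an exon of a non-coding one. Replicate 1 gave a signal of 54.7 and replicate 2 one of 11.6, with the ranks given above, and summits 313 and 284 bp upstream (mean -298.5 bp ± 20.5, SD, n = 2). No other gene had this summit in its window. A pooled summit near the 3' end of dpl-1 was weak (signal 15.2, rank 19670) and nearer to the 5' end of T23G7.2.

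The MuvB core was represented by 4 genes, which take in the extremes of the range. lin-54 encodes the core subunit that binds DNA itself. The gene (WBGene00003037) is on IV at 13241044 to 13243401, plus strand, with 3 annotated 5' ends within a few bases. Its peak at 13240532 to 13240849 was called with a signal of 356 in replicate 1 (rank 30) and 191 in replicate 2 (rank 11). The summit was 363 bp upstream of lin-54 but 30 bp upstream of rpl-12, which encodes a protein of the large ribosomal subunit. These genes start 393 bp apart on opposite strands, so the peak cannot be given to either alone. The replicate summits lay 363 and 360 bp from lin-54 (mean -361.5 bp ± 2.12, SD, n = 2). No summit of any list lay in the body of lin-54.

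lin-9 encodes a core MuvB subunit. It (WBGene00002998) is on III at 8900237 to 8904131, minus strand, and its peak at 8904181 to 8904438 was in the window of no other protein-coding gene. The summit was 155 bp upstream. Signals of 235.7 (rank 140) and 106 (rank 136) made it the member with the closest ranks in the replicates. The replicate summits were 177 and 156 bp upstream (mean -166.5 bp ± 14.8, SD, n = 2). Further optimal peaks flanked the gene. At 8905231 to 8905580 (signal 103, rank 1836) the summit was 209 bp upstream of unc-32, which encodes a subunit of the vacuolar proton pump and is read away from lin-9. At 8899726 to 8900075 (signal 77.7, rank 2633) it was past the 3' end of lin-9.

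lin-52 encodes a small subunit that links the MuvB core to the pocket protein in human cells. The 668 bp gene (WBGene00003035, III 9824083 to 9824750, minus strand) lies 127 bp behind ZK632.9 on the same strand. Its optimal summit, in the peak at 9825274 to 9825623, was 699 bp upstream of a lin-52 5' end but 17 bp upstream of that of ZK632.9. It was called at a signal of 32.5 in replicate 1, also 699 bp upstream. In replicate 2 the strongest summit in the window (signal 20.0) lay 817 bp upstream. That place is between the optimal summit and a weaker pooled one 898 bp upstream (signal 28.9, rank 8047). The mean of the replicates (-758 bp ± 83.4, SD, n = 2) may therefore join different summits. The pooled list held a weaker summit closer to lin-52 itself, 171 bp upstream (signal 25.9, rank 9178). Near that place replicate 1 had a summit 166 bp upstream (rank 8774), and replicate 2 had a summit 6 bp downstream (rank 10234) and another 209 bp upstream (rank 19681). The nearest stronger optimal peak was beyond the window, 1452 bp upstream of lin-52 (signal 137, rank 1169).

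lin-37 encodes the remaining core subunit described here. Its gene (WBGene00003022, III 7070890 to 7072552, minus strand) had no summit in the promoter window in any of the 4 lists. It lies 61 bp behind ZK418.5 on the same strand. The nearest optimal summit upstream, in the peak at 7073979 to 7074328, was 1602 bp from lin-37 and 303 bp upstream of ZK418.5. It had a signal of 73.1 and rank 2853, with rank 3250 in replicate 1 and 2506 in replicate 2. On the downstream side the peak at 7068659 to 7069008 (signal 102, rank 1866) had R01H2.8 as its nearest gene. Inside lin-37 a single summit was listed, in replicate 2, at rank 16773, in an exon and nearer to the 5' end of tmem-17.

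**Figure D3:**
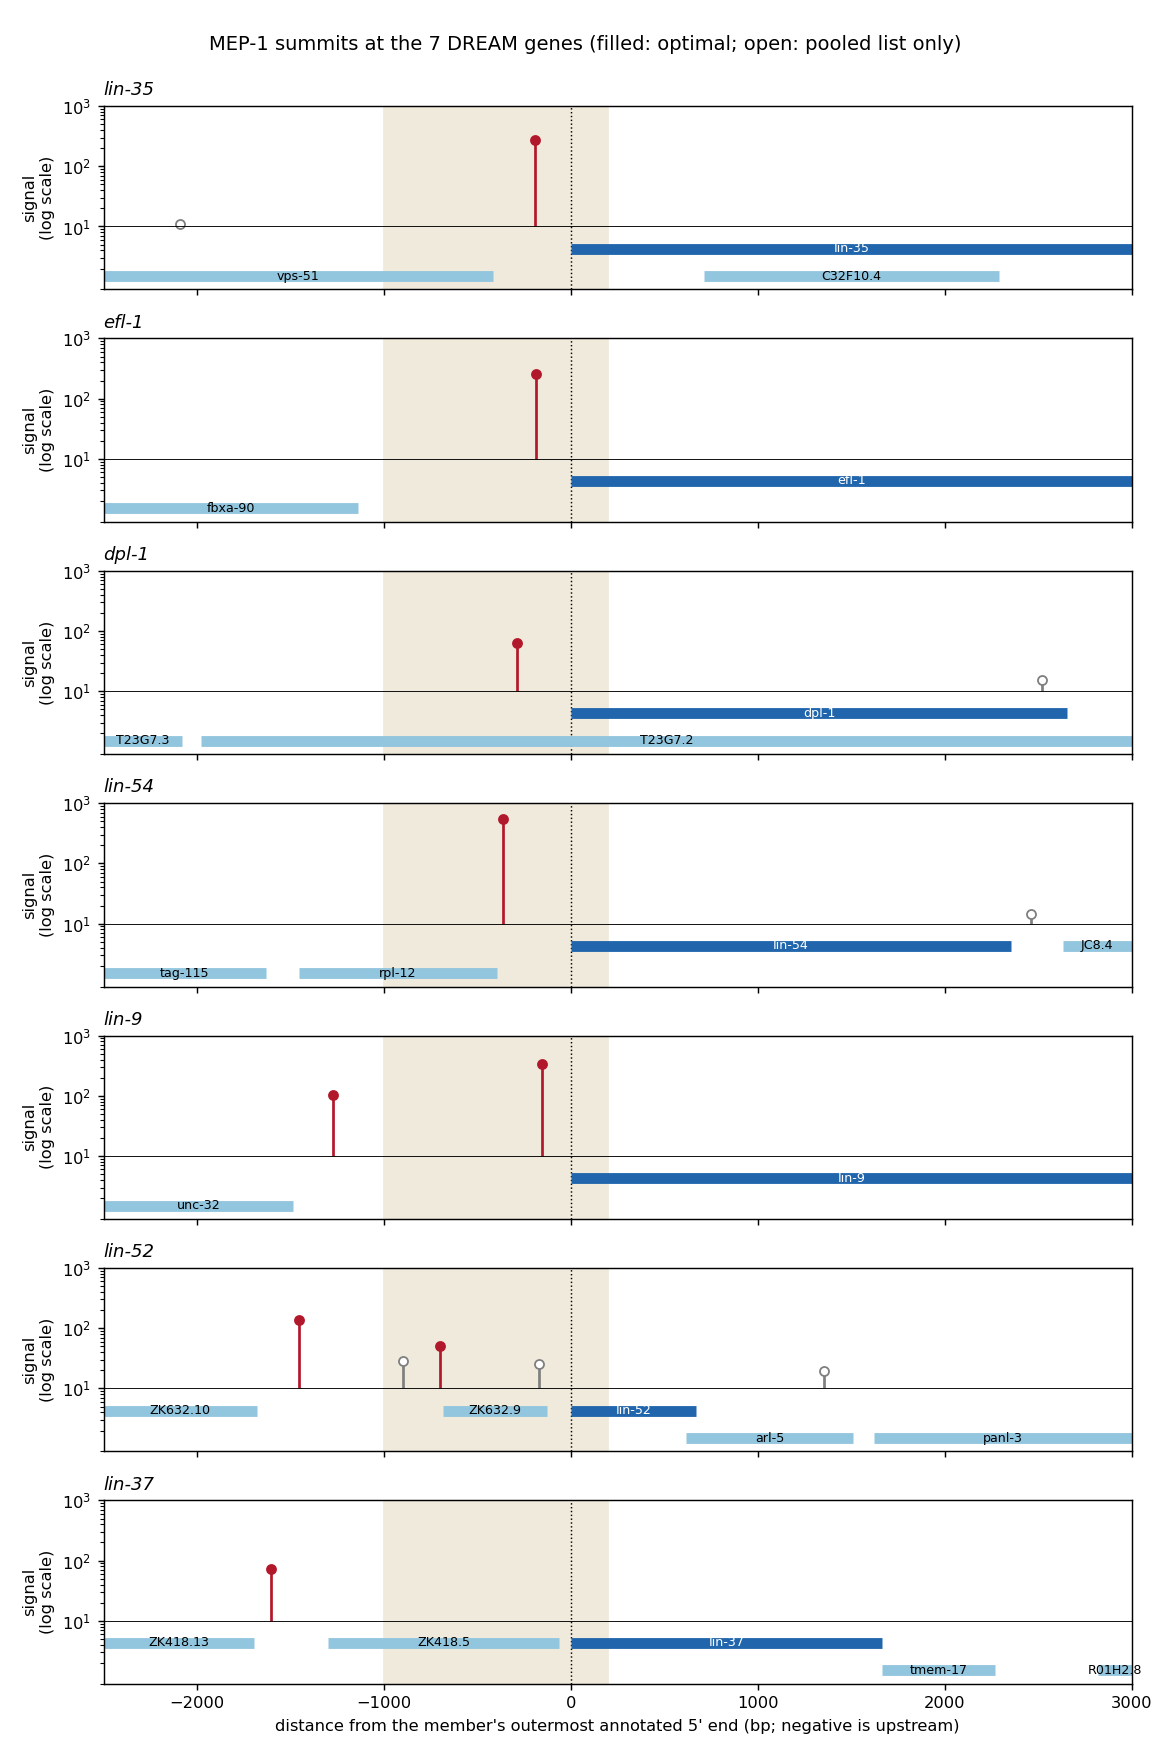
Pooled-list summits around each DREAM gene, by distance from its outermost annotated 5' end on its own strand (x axis, bp) and authors' signal (y axis, log scale), filled red where the summit is in the optimal list and open where it is not; the shaded band runs from 1000 bp upstream to 200 bp downstream, the dark bar is the DREAM gene, pale bars are other protein-coding genes, and bars in the upper row share its strand. Within the band 1 tall summit stands 155 to 363 bp upstream of lin-35, efl-1, lin-54 and lin-9, while at lin-52 and lin-37 the optimal summits lie at the start of, or beyond, the gene in front.

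The optimal summit was nearest to the gene's own 5' end for 4 of the 7 genes (lin-35, efl-1, dpl-1 and lin-9), against 13.3% of all genes. At lin-54 and lin-52 another gene was nearer, namely rpl-12 and ZK632.9. Summits at lin-9, efl-1 and lin-35 lay 155, 184 and 194 bp upstream and that at dpl-1 farther, 287 bp upstream, beside a median of -176 bp from the nearest 5' end over all promoter summits. Of the 6 summits, 4 were in the windows of 2 genes, compared with 848 of the 2837 in windows of 2 or more. Gene bodies outside the own window held no optimal summit at any of the 7, against 3.35% of all genes. In the pooled list 2 of 7 had one (dpl-1 and efl-1), near the 28.1% of all genes. Replicate 1 had one at efl-1 alone (28.9% of all genes) and replicate 2 at 5 of the 7 (30.5% of all genes), the best of them at rank 9826. Longer genes have more room for such summits, and these shares were not adjusted for length.

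Words drawn from MEP-1 summits in these data were searched for on both strands and were present at some of the genes only. GACGCA, a word taken from an earlier analysis of these same lists, lay within 50 bp of the optimal summit at lin-54 and efl-1, 2 of 6, while it was near 17.5% of all promoter summits. It was in 8.78% of all windows from 250 bases before to 50 after the outermost 5' end, and among the 7 genes only in that of efl-1. ACGCAG and CGTCTC were added after the summit sequences had been seen. Both overlap GACGCA where they run together, as in the CTGCGTCTC of efl-1. ACGCAG was near the same 2 summits (16.9% of all promoter summits), and CGTCTC was near those of efl-1 and lin-52 (18.2%). None of these 3 words lay within 100 bp of the summit at lin-9, lin-35 or dpl-1, so a strong peak was found with and without them.

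Motifs linked to DREAM itself were looked for on both strands as well. The element that LIN-54 binds was taken as TTTGAA and in its other form as TTCGAA. The E2F-type word GCGGGAA has as its reverse complement the word TTCCCGC, so both count as the same match. TTTGAA was within 50 bp of the summit at lin-54 and lin-9 (18.5% of all promoter summits), and TTCGAA at none (6.20%). TTTGAA is common, with 62.5% of all promoters holding it between 250 bases before and 50 after the 5' end. Of the 7 genes, 5 held it in that stretch. TTCGAA was there at lin-37 only (18.2% of all promoters). GCGGGAA was found at efl-1 alone, centred 41 bases upstream of the summit, against 2.54% of all promoter summits and 3.22% of promoters. GC content within 50 bp was highest at lin-9 (57.4%) and lowest at lin-52 (36.6%), with 41.6% at lin-35 and a median of 45.5% over all promoter summits. These matches describe letters and not binding by DREAM.

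Other genes of the pathway were counted in lists that were drawn up with earlier results of these data known, and their shares are descriptions beside the 17.5% of all genes. lin-53, the eighth DREAM subunit, which encodes an RbAp48-like histone-binding protein shared with NuRD, had a strong promoter summit (signal 381, rank 101). That summit was 248 bp upstream of lin-53 and nearer to nra-2. The other E2F genes, efl-2 and efl-3, had only pooled summits, at ranks 21730 and 9320. Among 8 cyclin-CDK regulators that act above Rb, 4 had an optimal promoter summit, led by cye-1 (signal 140), fzr-1 (79.4) and cdk-4 (65.3). The cye-1 summit was nearer to pqn-21, and the cdk-4 summit nearer to F18H3.1. cyd-1, which encodes the cyclin D partner of CDK-4, had a pooled summit at rank 18346, and cul-1 had none.

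Of 20 cell cycle genes of the kind that Rb and E2F control, 16 had an optimal promoter summit, with a median signal of 118. At 11 of the 20 the summit was nearest to the gene's own 5' end, against 13.3% of all genes. The 16 were led by pcn-1 (419), which encodes the sliding clamp of replication, cdc-6 (379), a replication licensing gene, and polh-1 (307), a translesion polymerase gene. The cdc-6 and polh-1 summits were nearer to acin-1 and rps-22. The replicative helicase genes mcm-2, mcm-3, mcm-4, mcm-5 and mcm-6 had signals of 80.1 to 227, the lowest at mcm-3, whose summit was nearer to C25D7.15. By contrast, mcm-7 had no summit even in the pooled list, as was true of orc-2. cdk-1, the mitotic kinase gene, had a pooled summit only, at rank 6219. The remaining synMuv B genes had an optimal promoter summit at 6 of 11, led by lin-36 (257), lin-13 (229) and lin-15B (203). Their summits lay 252, 786 and 990 bp upstream, the last near the edge of the 1000 bp window. At 5 of the 11 the summit was nearest to the gene's own 5' end. By contrast, hpl-2, met-2 and tam-1 had no promoter summit even in the pooled list.

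Germline genes that DREAM is known to keep off in the soma were without an optimal promoter summit at all 8 looked up. Over all genes 17.5% had one. Of these 8 only pgl-3 had a pooled one, at rank 14981, against 42.3% of all genes. In the NuRD and MEC complexes, with which MEP-1 is known to work, 7 of 9 genes had an optimal promoter summit. At 6 of the 9 it was nearest to the gene's own 5' end, beside 4 of the 7 DREAM genes and 13.3% of all genes. The median signal of these 7 NuRD and MEC genes was 107, against 261 at the 6 DREAM genes. That 107 is the signal at mep-1 itself, the gene that the transgene supplies fused to eGFP. Whether the transgene bears on the mep-1 peak was not tested. The strongest were lin-53, dcp-66 (160) and lin-40 (145), with summits 248, 159 and 862 bp upstream. No optimal promoter summit was found at hda-1 or rba-1. Whether the lists differ was not tested. mep-1, let-418 and hda-1 are in both the synMuv B and the NuRD list.

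**Figure D4:**
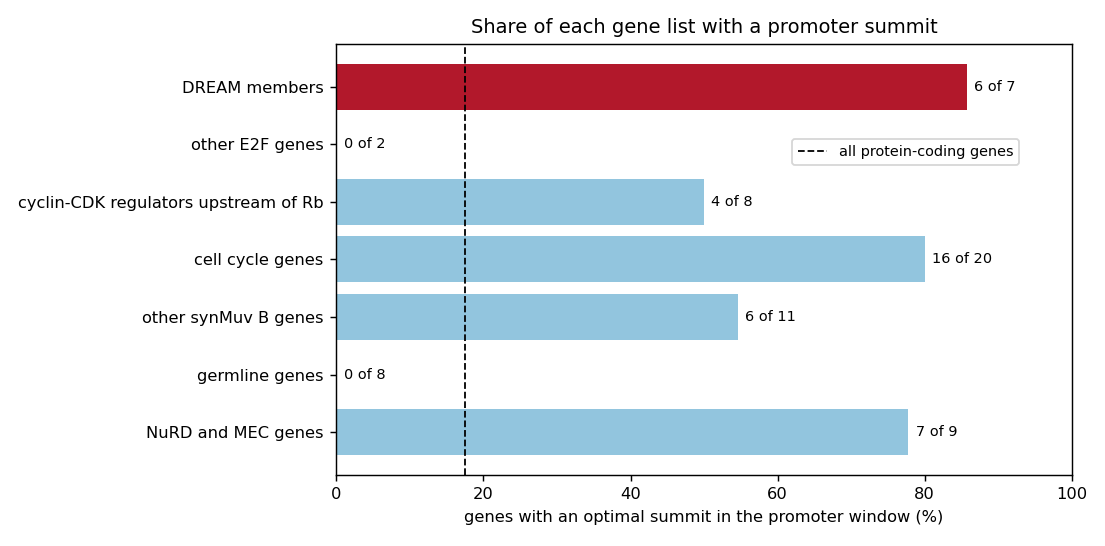
Percentage of each gene list with an optimal summit in the promoter window (bars, x axis in percent, with counts beside each bar), and the 17.5% of all protein-coding genes as the dashed line. The DREAM genes stand at 6 of 7, the cell cycle genes at 16 of 20 and the germline genes at 0 of 8.

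In the order of promoter summits each DREAM gene had neighbours of almost equal signal. Neighbours are named here by the nearest 5' end. By that rule the lin-54 and lin-52 summits would carry the names rpl-12 and ZK632.9. Next above lin-54 was eif-3.C (signal 554) and next below it sec-61.G (536), genes of translation initiation and protein secretion. lin-9 stood between nurf-1 (343) and snrp-3 (341.3), lin-35 between F02E9.5 (271) and sel-10 (269.0), and efl-1 between icd-2 (252.3) and R12C12.6 (251.9). The weaker ones, dpl-1 and lin-52, stood between lpr-3 (64.2) and sacm-1L (64.2) and between rfc-2 (51.0) and C27H5.2 (51.0). Steps of this size are below the shift of rank between replicates, whose median ratio of the larger to the smaller rank was 1.42 over all promoter summits and which ran from 1.03 at lin-9 to 2.73 at lin-54 among the DREAM genes.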

How the data were processed

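Peak lists on ce11 were used as deposited: an optimal list, a relaxed list of the pooled replicates and a relaxed list per replicate, per the deposited file lists. The aligner, peak caller, their versions and the reproducibility threshold were not given in the sources used here. Column 7 is the authors' signal value per peak and column 9 the deposited −log10 q value, read only for its ceiling. All 4904 optimal peaks were checked to be the 4904 highest of the pooled list. Lists on ce10 were not used, since builds were not mixed.

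Gene models came from Ensembl release 115 (WBcel235) and sequence from RefSeq. Called summits were counted per gene and set beside the share of all genes. No test was run, and no p-value is given. The look-up was checked on planted summits. Members, lists and words were chosen with earlier results of these data known, and named genes are the 7 members, genes nearer to their summits, neighbours in order of signal, and up to 3 with and 3 without a summit per list, beside a few others (mcm-2 to mcm-6, cdk-1, cdk-4, cyd-1, pgl-3, hda-1) chosen after their values were seen. Other windows, thresholds, 5' ends and single replicates were tried. Python 3.11.15, numpy 2.4.6, pandas 2.3.3 and matplotlib 3.10.9 were used.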

Additional observations from a re-analysis of the deposited data

How the results depend on the processing

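All 28 alternatives to the counts of genes stayed within 1.5 times the reported value, but the members changed. That limit is a weak check on counts this small. A count of 6 could rise only to 7, and the count of optimal gene-body summits was 0 under every setting. With the higher-signal 50% of optimal peaks 4 genes had a promoter summit (lin-35, efl-1, lin-9 and lin-54), against 11.4% of all genes. With replicate 2 alone 5 did, without dpl-1 (18.0% of all genes), and with replicate 1 alone 5 did, without lin-52 (17.4%). A window of 500 bp upstream gave 5, without lin-52 (14.3% of all genes), and one of 2000 bp gave 7 (22.3%), since it reached the peak in front of ZK418.5 for lin-37. With 2000 bp 6 genes had a summit among the highest peaks of both replicates, in place of 4, and the share of all genes was 19.4% in place of 15.0%. All summit distances stayed upstream, and taking the outermost 5' end alone left each as it was. Leaving out replicates gave -363 to -360 bp at lin-54, -177 to -156 at lin-9, -197 to -175 at lin-35, -188 to -184 at efl-1, -313 to -284 at dpl-1 and -817 to -699 at lin-52. No paired analysis was possible because there is 1 group. Without read counts, a place absent from a list cannot be told from one that was too shallow to call.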

Other observations

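The share of genes with a promoter summit differed with what lies in front of the gene, a description chosen after the data were seen. Of the 1840 protein-coding genes whose upstream neighbour lies within 500 bp on the opposite strand, as at lin-35 and lin-54, 43.7% had an optimal promoter summit, and 22.2% had one nearest to their own 5' end. Of the 7231 with a neighbour on the opposite strand farther away, as at efl-1, lin-9 and dpl-1, 20.0% and 15.1% did. Genes that overlap were passed over in finding the neighbour. Thus dpl-1 was classed by T23G7.3, 2080 bp away, although it lies inside T23G7.2. Of the 3609 genes that lie within 500 bp behind a gene on the same strand, as at lin-37 and lin-52, 12.2% and 10.4% did. Of the 7288 with a same-strand neighbour farther away, where no DREAM gene falls, 10.9% and 10.7% did. At close divergent genes the window can hold the same summit for both, and how far this sets the shares was not tested.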
